A study of Mus musculus with 2 samples.

Results

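The accessible regions described here are open-chromatin peaks that lie at the ends of at least 2 neighbouring protein-coding genes in mouse hepatic stellate cell nuclei. They were taken from the authors' peak list of replicate A by position: a peak was kept when it overlapped a peak of replicate B by at least 1 bp and lay within 1000 bp of an annotated end of 2 or more different protein-coding genes (mm10, gene models of GRCm38.p6). Of the 36577 peaks of replicate A, 23452 overlapped a peak of replicate B, which is 64.1%, and 1550 of these met the rule, or 6.61% (95% Wilson interval 6.30 to 6.93%). These 1550 are called shared peaks below. Of them, 1520 lay at the ends of 2 genes and 30 at the ends of 3. They fell on 1398 gene pairs and 2733 genes, covered 483 kb in all, and none was on chromosome Y.

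The study profiled open chromatin by ATAC-seq, in which the Tn5 transposase inserts sequencing adapters into exposed DNA. There was 1 group of 2 samples, replicates A and B, with 36577 and 28794 peaks. The nuclei came from livers of healthy, chow-fed mice of strain C57BL6/JBomTac that carried, on a B6.Cg background, the allele Gt(ROSA)26Sortm1(mCherry-Rpl10a-Flop)Kra, an mCherry-tagged ribosomal protein L10a at the Rosa26 locus, and the transgene Tg(Lrat-cre)1Rshw, a Cre recombinase driven by Lrat. Lrat is a gene of vitamin A storage that marks stellate cells in the liver. Nuclei were released by douncing, cleaned on a density gradient and sorted on the mCherry-RPL10A signal, so the cells are limited to those that made the tagged protein. No source used here says whether A and B came from separate animals. The entry names inside the list of replicate B begin with "Oil", whereas its label says control and chow; the labels were followed, and results of each list alone are given in the closing section. The sources used here do not give the number of reads, so the depth behind a peak is unknown. With 1 group there is no contrast, and peaks of a library are not replicates of each other, so medians and shares are set side by side for A and B without a test. Of 47 stellate cell genes, 34 (72.3%) had a replicated peak within 1000 bp of an end, against 41.9% of all protein-coding genes. The counts were 5 of 20 hepatocyte markers, 4 of 15 sinusoidal endothelial markers, 0 of 15 Kupffer and myeloid markers and 0 of 10 cholangiocyte markers. Lists of basic cell functions ran from 71.6% (vesicle complexes) to 88.6% (DNA replication and repair), with zinc finger genes (63.9%) and histone genes (37.9%) lower. The lists were chosen with earlier results of these data known, so they are no independent check of the label.

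Neighbouring genes that start close together on opposite strands and run away from each other are said to be head to head, and the DNA between their starts is called a bidirectional promoter. Such promoters are common in mammals, tend to be rich in CpG dinucleotides and poor in TATA boxes, and are known at many genes of DNA repair, mitochondria and basic metabolism. In a tandem pair the end of transcription of a gene lies next to the start of the following gene on the same strand, and in a tail-to-tail pair both genes end facing each other. An accessible region between head-to-head starts can therefore belong to the promoters of both genes, while at a tandem pair it can be the promoter of the downstream gene alone. ATAC-seq does not tell these apart.

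The DNA between head-to-head starts lies under many shared peaks but not all. Both starts were covered by 448 of 841 head-to-head peaks. The 9 stretches below run from 30 bases inside a gene to 30 bases inside its partner and were read from the RefSeq promoter windows of GRCm38.p6. They were picked among head-to-head shared peaks to show strong peaks, pairs known from the literature, a histone pair and a peak of unequal strength in A and B. Capitals mark matches on either strand to the GC box GGGCGG, to the CCAAT box, to the TATA box TATAAA, to the ETS-family letters CCGGAAG, to the NRF1 letters GCATGCGC, to the E-box CACGTG and to the AP-1 letters TGANTCA. The stretch of Erp44-Invs is chr4:48279606-48279736 on the minus strand, that of G3bp2-Uso1 chr5:92137696-92137938 on the minus strand, and that of Xrcc4-Tmem167 chr13:90089579-90089696 on the plus strand. That of Mrpl50-Zfp189 is chr4:49521054-49521205 on the plus strand, that of Mrps12-Sars2 chr7:28741792-28741986 on the minus strand, and that of Ranbp1-Trmt2a chr16:18248665-18248876 on the minus strand. That of Sirt3-Psmd13 is chr7:140882280-140882423, that of H2ac12-H2bc12 chr13:22035614-22035850 and that of Rad9b-Vps29 chr5:122354241-122354357, all on the plus strand.
Erp44-Invs: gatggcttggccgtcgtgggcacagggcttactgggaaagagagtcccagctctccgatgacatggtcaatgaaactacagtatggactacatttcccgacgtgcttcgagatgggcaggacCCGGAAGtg
G3bp2-Uso1: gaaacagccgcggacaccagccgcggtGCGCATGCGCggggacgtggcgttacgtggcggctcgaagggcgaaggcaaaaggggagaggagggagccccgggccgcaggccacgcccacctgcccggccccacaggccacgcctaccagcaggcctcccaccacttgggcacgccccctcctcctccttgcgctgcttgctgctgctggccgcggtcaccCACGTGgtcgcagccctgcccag
Xrcc4-Tmem167: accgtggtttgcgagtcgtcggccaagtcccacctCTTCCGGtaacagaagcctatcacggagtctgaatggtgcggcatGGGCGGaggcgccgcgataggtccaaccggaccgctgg
Mrpl50-Zfp189: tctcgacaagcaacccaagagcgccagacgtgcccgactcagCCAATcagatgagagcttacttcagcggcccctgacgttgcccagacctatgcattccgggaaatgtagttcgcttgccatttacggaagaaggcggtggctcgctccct
Mrps12-Sars2: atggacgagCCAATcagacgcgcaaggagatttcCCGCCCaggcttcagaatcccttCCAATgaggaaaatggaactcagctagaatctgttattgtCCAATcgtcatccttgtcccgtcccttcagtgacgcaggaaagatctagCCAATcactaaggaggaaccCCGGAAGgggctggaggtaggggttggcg
Ranbp1-Trmt2a: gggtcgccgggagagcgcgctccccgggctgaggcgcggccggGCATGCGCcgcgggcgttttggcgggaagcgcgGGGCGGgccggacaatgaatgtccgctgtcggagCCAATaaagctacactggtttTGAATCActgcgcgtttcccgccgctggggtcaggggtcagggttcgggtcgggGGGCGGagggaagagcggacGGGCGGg
Sirt3-Psmd13: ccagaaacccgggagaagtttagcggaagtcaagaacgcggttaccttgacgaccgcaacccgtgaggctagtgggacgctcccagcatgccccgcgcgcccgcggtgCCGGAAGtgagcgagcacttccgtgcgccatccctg
H2ac12-H2bc12: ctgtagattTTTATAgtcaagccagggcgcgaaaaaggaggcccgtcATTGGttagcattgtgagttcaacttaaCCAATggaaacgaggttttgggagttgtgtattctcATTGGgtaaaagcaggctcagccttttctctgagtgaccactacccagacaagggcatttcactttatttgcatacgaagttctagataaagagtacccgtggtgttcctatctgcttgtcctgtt
Rad9b-Vps29: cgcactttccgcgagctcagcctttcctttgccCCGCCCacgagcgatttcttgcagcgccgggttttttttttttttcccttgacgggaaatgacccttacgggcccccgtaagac

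The stretches differ in what they hold. The counts cover each stretch as printed, including the bases that lie inside the genes. The DNA of Ranbp1-Trmt2a held 29 CpG dinucleotides in 212 bases and 3 GC boxes, and that of G3bp2-Uso1 held 24 CpG dinucleotides in 243 bases with 2 overlapping NRF1 matches, a palindrome read on both strands. The stretch of H2ac12-H2bc12, a histone H2A and a histone H2B gene, held 6 CpG dinucleotides in 237 bases, 3 CCAAT matches and a TATA match. The TATA match lay inside the annotated H2ac12 gene, not between the starts. Mrps12 and Sars2 encode a mitochondrial ribosomal protein and the mitochondrial seryl-tRNA synthetase. Their stretch held 4 CCAAT matches, a GC box and an ETS match. The ETS match lay inside the annotated Mrps12 gene and the leftmost CCAAT match inside Sars2, not between the starts. The stretch of Mrpl50-Zfp189 had a CCAAT match and no GC box. A match is a description of letters, not evidence of binding.

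Shared peaks were among the stronger replicated peaks. Strength is the fold enrichment that the authors deposited for each peak, the ratio of its signal to the local background. The 1550 shared peaks had a median fold enrichment of 15.0 in A (quartiles 11.0 and 18.7, range 4.05 to 29.9) and 13.3 in B (quartiles 10.1 and 16.9, range 3.93 to 27.6). The 7286 replicated peaks at the end of a single gene had medians of 14.3 in A and 12.9 in B, and the 14616 replicated peaks at no gene end had 10.8 and 9.41. The ratio of medians to peaks at no end was 1.38 in A and 1.41 in B, and to peaks at 1 end 1.05 and 1.03. Against peaks at 1 end the distributions nearly coincided: a shared peak was the stronger in 52.8% of all pairings in A and 52.2% in B. Against peaks at no end it was the stronger in 71.2% and 74.1%.

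Among all replicated peaks the strongest 10 percent are by construction 10% of them. Of the shared peaks, 338 (21.8%) belonged to that class in A and 352 (22.7%) in B, against 19.5% and 20.6% of peaks at 1 end and 4.0% and 3.38% of peaks at no end. The strongest 25% held 698 shared peaks (45.0%) in A and 726 (46.8%) in B. The strongest peaks of all were not here: the highest fold enrichment at no gene end was 41.6 in A and 42.8 in B, against 29.9 and 27.6 at shared peaks.

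Shared peaks were slightly wider than the rest, and strength rose with width in every class. Their median width was 290 bp in A (quartiles 231 and 368, range 150 to 898) and 277 bp in B, compared with 282 and 268 bp at 1 end and 258 and 230 bp at no end. A width of 500 bp or more was reached by 97 shared peaks (6.26%), by 5.19% of peaks at 1 end and by 4.34% of peaks at no end. Under 200 bp were 11.7%, 12.8% and 19.8%. Within 3 width classes of all replicated peaks, the ratio of median fold enrichment to peaks at no end was 1.12 in A and 1.16 in B for narrow peaks, 1.29 and 1.39 for middle ones and 1.38 and 1.45 for wide ones. The same ratios to peaks at 1 end lay between 1.01 and 1.03 in all 3 classes of both replicates. The closeness to peaks at 1 end thus held at matched width, and the gap to peaks at no end was smallest among narrow peaks.

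**Figure D1:**
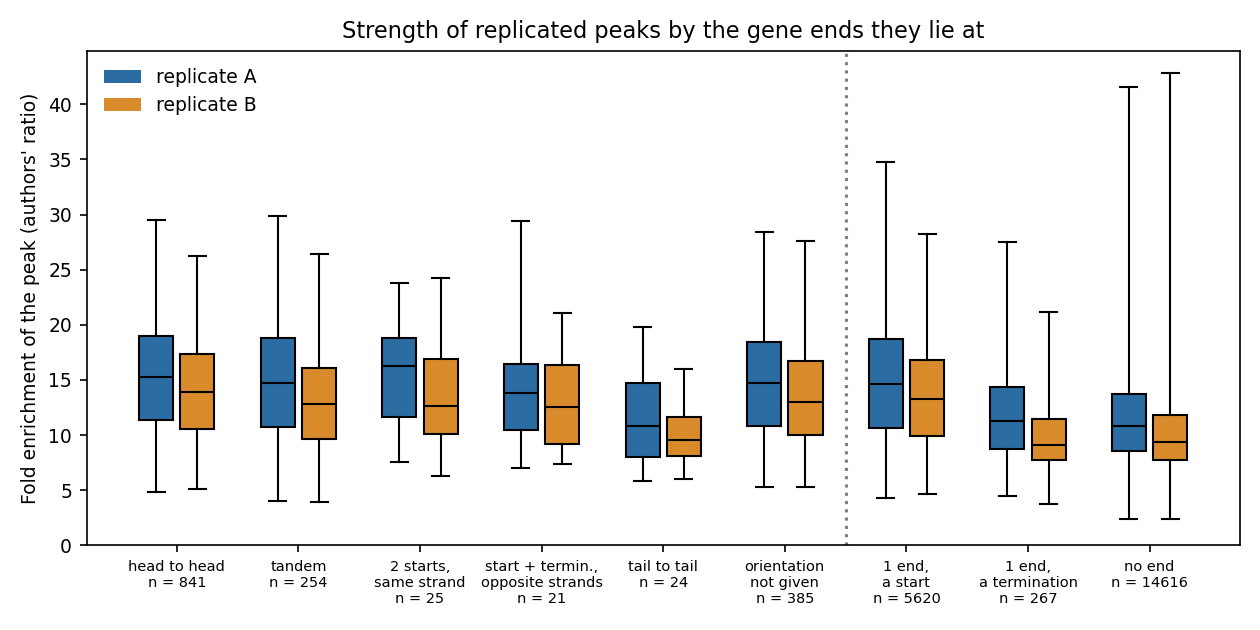
Fold enrichment (the authors' ratio, linear axis) of replicated peaks in replicates A and B, grouped by the orientation of the genes at shared peaks (left of the dotted line) and by the kind of end at other peaks. Boxes span the quartiles with the median as a line and whiskers reach the lowest and highest peak; head-to-head peaks have medians of 15.2 and 13.9, tail-to-tail peaks 10.8 and 9.52. The 1399 peaks at 1 end of unknown kind are not drawn.

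Most shared peaks lay between or at gene starts. The strand, needed to tell a start from a termination, was given for 17492 of 21887 protein-coding genes, which left 1165 shared peaks of known orientation. The 26 shared peaks on chromosome 18 are all of unknown orientation and enter no count by orientation, start or termination. Of these, 841 (72.2%) were head to head on 743 gene pairs, 254 (21.8%) were tandem, 25 lay at 2 starts on the same strand, 24 were tail to tail and 21 lay at a start and a termination on opposite strands. The ends at head-to-head peaks were a median of 140 bp apart (quartiles 59 and 321), and at tandem peaks 449 bp. The peak covered both ends in 448 head-to-head cases, 1 end in 264 and neither in 129. At tandem pairs it covered both ends in 19 cases and 1 end in 168, while over all shared peaks both ends were covered in 625, 1 end in 622 and neither in 303.

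Peaks at a start were stronger than peaks at terminations alone. Median fold enrichment was 15.2 in A and 13.9 in B at head-to-head pairs, 14.8 and 12.8 at tandem pairs, 16.2 and 12.7 at 2 starts on the same strand and 13.8 and 12.6 at a start beside an opposite termination. At tail-to-tail pairs, which have no start, it was 10.8 and 9.52. Peaks at the start of a single gene had medians of 14.6 and 13.2, and those at a single termination 11.3 and 9.15. A head-to-head peak therefore differed from a peak at a lone start by a ratio of medians of 1.04 in A and 1.05 in B, and a tail-to-tail peak resembled a peak at a lone termination in level. The 24 tail-to-tail and 21 opposite-strand peaks are few, and the quartiles of fold enrichment at the former were 7.99 and 14.7 in A.

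Strength at head-to-head pairs differed by whether the starts overlapped, with no common trend by distance among the rest. Where the starts were 0 to 300 bp apart (453 peaks, 53.9%) the median was 16.4 in A and 14.7 in B, and the peak covered both starts in 352 cases (77.7%). Where the 2 genes overlapped at their starts (288 peaks, 34.2%) it was 13.7 and 12.7, and both starts were covered in 77. At more than 300 and up to 1000 bp (92 peaks) it was 15.0 and 14.5, and at over 1000 bp (8 peaks) 17.1 and 14.2. Peaks at overlapping starts were thus the weakest of the 4 groups in both replicates, while the order of the others differed between A and B.

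The summit, the base of highest signal in a peak, lay close to a start. At head-to-head pairs it was a median of 52 bp from the nearer start and 185 bp from the farther one, and it lay between the starts in 362 peaks (43.0%). At tandem pairs it was nearer the start of the downstream gene in 229 of 254 peaks (90.2%, 95% Wilson interval 85.9 to 93.2%), at a median of 83 bp from that start and 479 bp from the termination of the upstream gene. The peak at a tandem pair thus sat, as a rule, at the start and not at the termination.

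**Figure D2:**
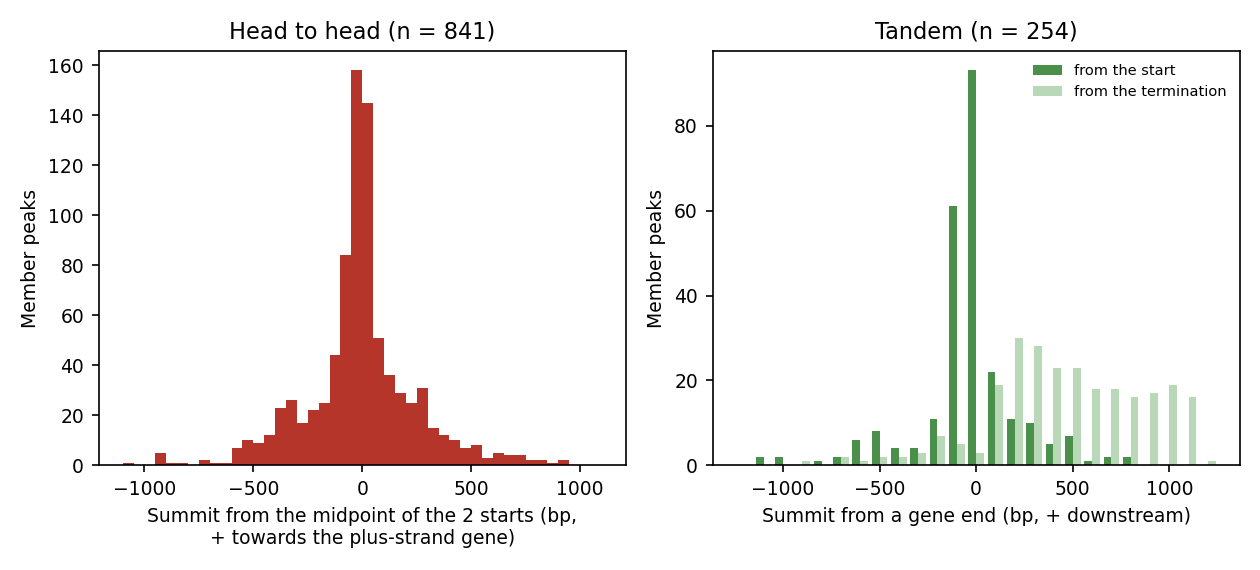
Position of the summit of head-to-head shared peaks relative to the midpoint of both starts (left, 841 peaks, bins of 50 bp) and of tandem shared peaks relative to the start and to the termination (right, 254 peaks, bins of 100 bp, positive values downstream in the direction of transcription). The head-to-head summits pile up at the midpoint, and the tandem summits pile up just before the start and spread out downstream of the termination.

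The share of close neighbours with a shared peak differed by orientation. Over the genome, 4810 pairs of protein-coding genes had ends no more than 2000 bp apart, and 1454 of these (30.2%) had a replicated peak within 1000 bp of both ends. Among head-to-head pairs the share was 758 of 1005 (75.4%, 95% Wilson interval 72.7 to 78.0%), among tandem pairs 250 of 902 (27.7%, 24.9 to 30.7%) and among tail-to-tail pairs 29 of 1049 (2.76%, 1.93 to 3.94%). The intervals cover counting error only, and neighbouring pairs can share a gene. For comparison, 41.2% of all 17492 starts and 3.85% of the same number of terminations had a replicated peak within 1000 bp. Among starts without another gene's end within 2000 bp the share was 35.2%, and among such terminations 1.90%.

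For head-to-head pairs the share was nearly level up to 600 bp. The share with a shared peak was 84.6% at up to 100 bp, 83.5% beyond that and up to 300 bp, 81.6% up to 600 bp and 71.3% up to 1000 bp, with overlapping intervals for the first 3 classes. It was 28.3% in the class up to 1500 bp and 4.08% in that up to 2000 bp, where the rule allows a shared peak only in a narrow strip. Tandem pairs had their highest share, 48.7%, in the class of more than 300 and up to 600 bp. Of the 1005 head-to-head pairs, 175 (17.4%) had no peak at both ends in either replicate, 40 had a peak in A alone, 25 in B alone, and 7 had peaks in both lists that did not overlap.

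**Figure D3:**
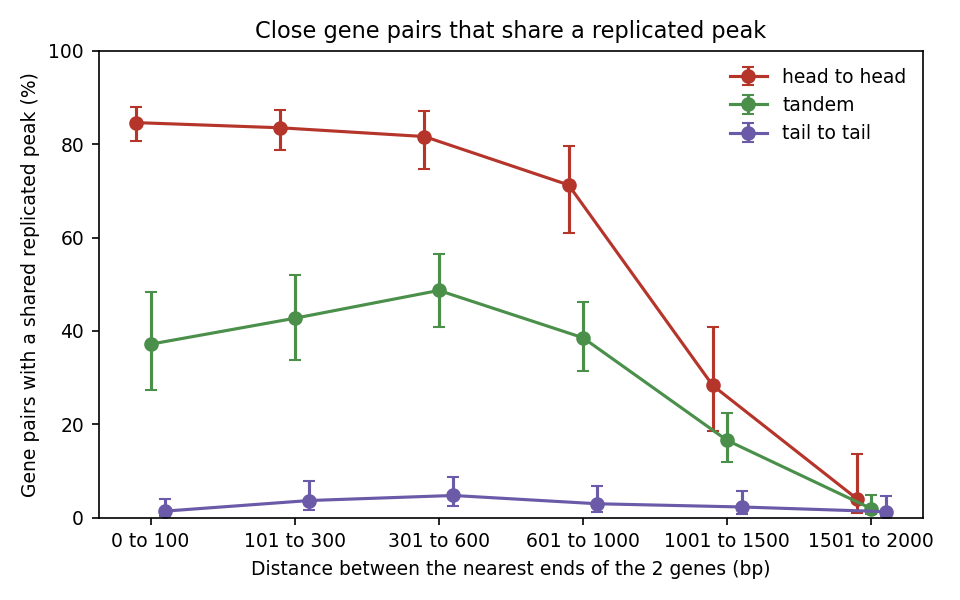
Share of gene pairs with a replicated peak within 1000 bp of both ends, by the distance between the ends (bp) and by orientation, with 95% Wilson intervals. Head-to-head pairs stay between 71.3 and 84.6% up to 1000 bp, tandem pairs reach 48.7% and tail-to-tail pairs stay below 5%.

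The shared peaks of best mean rank over A and B came from tandem as well as head-to-head pairs. The first was at Fyco1-Xcr1 (chr9:123851776-123852201), over the start of Fyco1, an adaptor of autophagosome transport, and 114 bp from the annotated end of the chemokine receptor gene Xcr1. It reached 29.9 in A and 26.0 in B. The next was the tandem peak of Clip3-Alkbh6 (chr7:30308493-30308832) at 27.3 and 26.5, over the start of the AlkB homologue Alkbh6. Jpt2-Cramp1l, the third tandem peak, had 25.1 and 23.3, and Fbxo38-Spink10, of unknown orientation, 28.4 and 22.8.

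Head-to-head pairs followed closely. Pinlyp-Xrcc1 (chr7:24546840-24547197), whose second gene encodes the scaffold of DNA single-strand break repair, had 27.5 in A and 25.5 in B. Ccdc163-Mmachc, with a gene of vitamin B12 processing, had 27.3 and 25.1, and its starts overlapped by 45 bp. Erp44-Invs, whose DNA is printed above, had 28.4 and 23.9. Erp44 encodes a protein of the early secretory pathway and Invs the ciliary protein inversin.

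The remaining best-ranked peaks had similar levels. Atp7b-Alg11, a copper-transporting ATPase beside a mannosyltransferase of N-glycosylation, had 26.4 in A and 27.6 in B, the highest value of all shared peaks in B. Calr3-1700030K09Rik had 28.6 and 23.1, Ccdc146-Fam185a 27.0 and 23.7, Acad8-Thyn1 29.5 and 22.8, and G3bp2-Uso1 26.3 and 24.5. Acad8 acts in valine breakdown, G3bp2 is a stress granule protein and Uso1 a Golgi tether. In these 10 peaks the value of A exceeded that of B except at Atp7b-Alg11.

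The widest shared peaks were not the strongest. The peak at Tsen34-Mboat7 (chr7:3692936-3693833), a tRNA splicing endonuclease subunit beside a lysophospholipid acyltransferase, was 898 bp wide in A and 803 bp in B, and its strength was 10.9 in A and 12.7 in B. Khsrp-Slc25a41 was 845 bp wide at 13.0 and 13.4, Rnf5-Agpat1 794 bp at 12.7 and 11.7, and Ubxn6-Hdgfl2 764 bp at 12.2 and 12. Their fold enrichment lay below the shared-peak median of 15.0 in A. L3hypdh-Jkamp differed between the lists in width, 782 bp in A and 503 bp in B, and had 17.7 and 17.

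Peaks at the ends of 3 genes were 30 in number. The best-ranked lay at Psma4-AY074887 with Hykk close by (22.8 in A, 20.5 in B), where Psma4 encodes a proteasome subunit. Gm45927-Fam189b with Scamp3 had 23.0 and 16.3, and Gm45935-Setdb2 with Cab39l had 21.0 and 16.9. LOC115486880-Rspry1 with Psme3ip1 had 19.9 and 16.4, and Borcs8-Gm45929 with Rfxank 16.2 and 18.2. At 4 of these 5 the set of genes included a predicted model (a Gm or LOC name).

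Some pairs had several shared peaks. There were 147 such pairs, and 5 of them had 3 peaks: Fiz1-Zfp524, Ecm1-Tars2, Bzw2-Ankmy2, Cbx5-Hnrnpa1 and Usp5-Cdca3. At Cbx5-Hnrnpa1, the head-to-head pair of heterochromatin protein 1 alpha and an abundant RNA-binding protein, the 3 peaks had 8.62, 8.70 and 10.3 in A and 12.1, 10.8 and 9.54 in B. At Bzw2-Ankmy2 they had 15.0, 9.81 and 7.48 in A and 11.9, 10.1 and 9.09 in B. Usp5-Cdca3 had a main peak of 16.7 and 15.4 and lesser ones of 10.4 and 8.90 and of 8.44 and 8.45. Of the 15 peaks of these 5 pairs, 14 were below the median of all shared peaks in A.

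Known bidirectional pairs were mostly covered. Of 21 pairs named from textbook knowledge, all were in the annotation, 20 had ends within 2000 bp, and 15 had at least 1 shared peak. Among the 21 is Rpl7a-Surf1, which is tail to tail in this annotation. Atm-Npat (chr9:53536688-53537091), the DNA damage kinase beside an activator of histone transcription, reached 23.5 in A and 20.7 in B. Chek2-Hscb, a checkpoint kinase beside an iron-sulfur co-chaperone, had 24.0 and 16.1. Mrps12-Sars2 had 20.9 and 19.8. These 3 were above the upper quartile of shared peaks in A.

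The other textbook pairs described here were lower in A than Atm-Npat, Chek2-Hscb and Mrps12-Sars2. Prkdc-Mcm4, Brca1-Nbr1 and the main peak of Paics-Ppat were still above the upper quartile of shared peaks in A. Prkdc-Mcm4, the catalytic subunit of DNA-PK beside a subunit of the replicative helicase, had 19.0 in A and 17.1 in B with a peak of 627 bp in A. Paics-Ppat, a pair of purine synthesis enzymes, had 19.7 and 16.2 at the main peak and 10.5 and 10.4 at a second one. Brca1-Nbr1 had 18.7 and 17.8, with the peak 436 bp from the nearer start, and Wrap53-Trp53 had 9.69 and 9.35 over both starts and a second peak of 14.9 and 10.8. Hspd1-Hspe1, which encode the mitochondrial chaperonin and its co-chaperonin, had 17 and 12.8 over both starts.

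The pair Tap1-Psmb9 of antigen processing had 17.4 and 14.7, and its peak was 575 bp wide in A and 300 bp in B. Ranbp1-Trmt2a had 15.5 and 14.3. Psmd13-Sirt3, a proteasome lid subunit beside a mitochondrial deacetylase, had a peak over the starts of 14.6 in A and 8.72 in B and a second one of 7.54 and 11.6. Fen1-Tmem258, with the flap endonuclease of replication, had 8.99 and 9.77, both below the lower quartile of shared peaks.

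The 6 textbook pairs without a shared peak included both collagen IV pairs. Col4a1-Col4a2 encode the main chains of basement membrane collagen and their starts overlap by 84 bp. Replicate B had a peak there with a fold enrichment of 8.52 and A had none. Col4a3-Col4a4 had no peak at both ends in either list. At Surf1-Surf2, A had a peak of 10.9 and B none. Tk1-Afmid and Rpl7a-Surf1 had none at both ends. The nearest ends of Rpl7a and Surf1 are terminations 66 bp apart, so no bidirectional promoter lies between them. The ends of Cryab and Hspb2 lay 4282 bp apart in this annotation.

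Gene lists differed in how many of their genes had an end at a shared peak, beside 12.5% of all protein-coding genes (2733 of 21887). These counts are descriptions, and the lists are not independent of what is known about bidirectional promoters. The highest shares were in DNA replication and repair (32 of 79, 40.5%), mitochondrial ribosomal proteins (31 of 78, 39.7%), respiratory chain subunits (33 of 84, 39.3%) and transfer RNA synthetases (14 of 37, 37.8%). Chaperones and chaperonins had 24 of 76 (31.6%), the list of ciliary and centrosomal proteins 29 of 96 (30.2%), RNA polymerase and Mediator subunits 16 of 57 (28.1%), splicing factors 13 of 47 (27.7%) and histone genes 24 of 87 (27.6%). Cytosolic ribosomal proteins (19 of 80, 23.8%), vesicle tethering and sorting complexes (22 of 95, 23.2%) and proteasome subunits (11 of 49, 22.4%) followed. The ciliary list took in 40 genes by the Ttc name of tetratricopeptide repeat proteins, not all of which are ciliary or centrosomal; without them, a choice made after the data were seen, 19 of 56 genes (33.9%) were at a shared peak. Zinc finger genes were below the share of all genes, at 39 of 421 (9.26%).

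A close neighbour is needed for a shared peak, and the lists differ in that too. Of all genes 32.2% had another gene's end within 2000 bp, and of these 38.8% had a shared peak. Of mitochondrial ribosomal genes 64.1% had a close neighbour, and of those 62.0% had a shared peak (31 of 50). For DNA replication and repair the same figures were 67.1% and 60.4%, for RNA polymerase and Mediator subunits 70.2% and 40%, and for zinc finger genes 20.2% and 45.9%. The zinc finger genes thus had a close neighbour less often than all genes. Their share among those with one rests on 39 of 85 genes, and no interval was computed for it. Of head-to-head pairs with a zinc finger gene 66.7% had a shared peak, beside 75.4% of all head-to-head pairs.

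**Figure D4:**
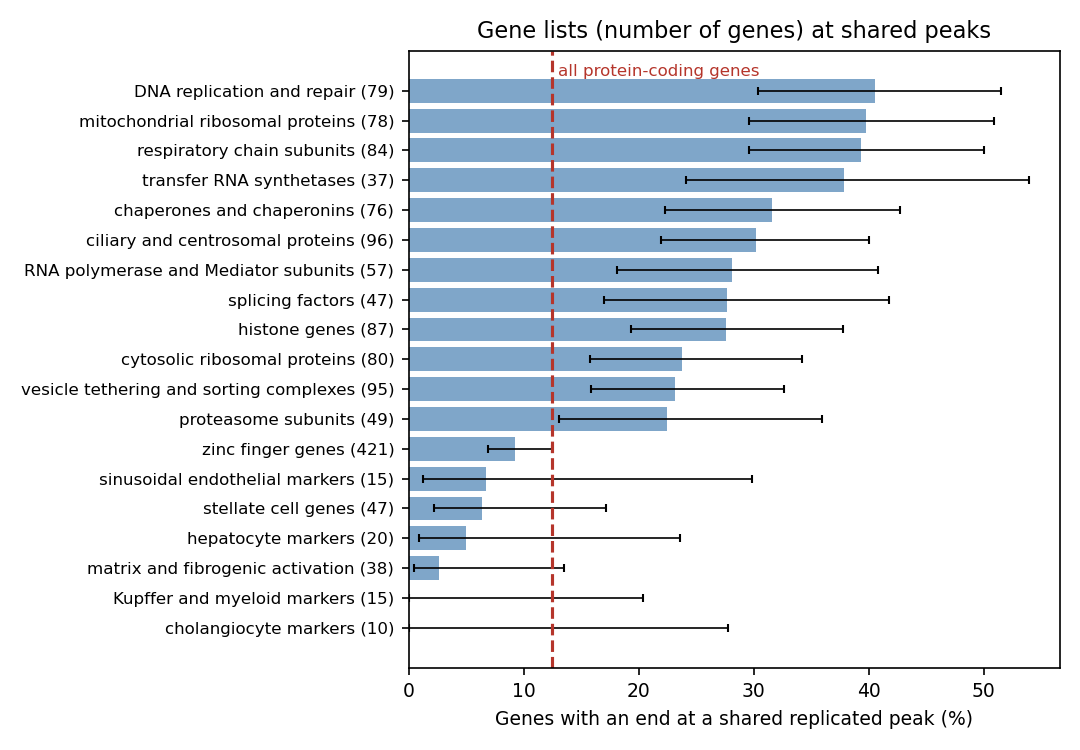
Share of the genes of each list with an end at a shared peak (bars, from 0) with 95% Wilson intervals for counting error, and the share of all protein-coding genes as a dashed line at 12.5%. Lists of basic cell functions reach 22.4 to 40.5%, and the lists of cell type markers lie at or below 6.67%.

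Named examples show the levels within the lists. Among mitochondrial genes, Mrpl50-Zfp189 had 23.9 in A and 23.6 in B, Cyb5rl-Mrpl37 23.8 and 17.9, Atp5e-Prelid3b 25.1 and 20.1, and Wdr4-Ndufv3 21.2 and 20.7. Atp5e encodes a subunit of ATP synthase and Ndufv3 one of complex I. In DNA repair, Xrcc4-Tmem167, with a factor of non-homologous end joining, had 24.5 and 22.6.

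The named peaks at ribosomal protein genes were strong in both replicates, as was the proteasome peak at Psma4-AY074887 (22.8 in A, 20.5 in B). Rpl15-Nkiras1 had 26.1 in A and 22.1 in B. Rpl3l-Msrb1 had 23.1 and 21.2, over the start of Msrb1 and 217 bp from the termination of Rpl3l. The second proteasome peak, at Psmd8-Catsperg1, had 21.8 and 13.7. In the last of these the annotated end of Catsperg1, a sperm ion channel gene, lay 714 bp from a peak at the start of the proteasome gene Psmd8. The synthetase gene Wars, at Wdr25-Wars, had 21.5 and 20.2.

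The chaperone pair Hspa14-Cdnf had 22.5 and 20.8, and Tbccd1-Dnajb11 21.4 and 17.3. Polr2i-Tbcb, with an RNA polymerase II subunit, had 20.4 and 22.5, and Med29-Paf1, which joins a Mediator subunit to a subunit of the PAF1 elongation complex, 22.9 and 18.4. Cdc26-Prpf4 had 23.4 and 23.0 and Qpctl-Snrpd2 21.1 and 18 among splicing factor genes.

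The vesicle and ciliary lists also held strong shared peaks. Trappc11-Rwdd4a had 24.5 in both replicates, and Trappc2l-Galns 27.7 and 21.5. Tmtc3-Cep290, with a gene of the ciliary transition zone, had 25.7 and 24.5, and Ttc13-Arv1, listed by its Ttc name alone, 27.4 and 22.1. The zinc finger pair Zfp654-Cggbp1 had 23.5 and 23.7. The examples of each list are its best-ranked peaks, so their levels lie above those of the list as a whole.

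Histone genes were the exception among head-to-head pairs of known strand. Replication-dependent histone genes sit in clusters in which H2A and H2B genes start head to head. Of 16 head-to-head pairs of histone genes, 3 had a shared peak (H2ac11-H2bc11, H2ac12-H2bc12 and H3c3-H2bc3), A alone had a peak at 1, B alone at 3, both had peaks that did not overlap at 1, and neither list had one at 8. Over the other lists of basic cell functions the share of head-to-head pairs with a shared peak ran from 70.0% for vesicle complexes to 94.4% for the ciliary list (Ttc genes included), with 88.5% for DNA replication and repair and 66.7% for zinc finger genes. In all, 12 shared peaks lay between histone genes, with a median fold enrichment of 12.4 in A (range 7.03 to 13.3) and 11.8 in B (8.30 to 18.9). Some lay at pairs of unknown orientation, which are not among the 16: H2bc9-H3c7, H2ac6-H2bc4, H2ac20-H2bc21 and H4c1-H3c1. Of 52 histone genes with a close neighbour, 24 (46.2%) were at a shared peak, beside 38.8% of all such genes. H2ac12-H2bc12 had 13.3 in A and 18.2 in B, and the variant histone gene H2ax, at Dpagt1-H2ax outside the clusters, had 18.1 and 15.4. Near-identical copies of clustered histone genes share sequence, and the sources used here do not say how reads that fit several places were handled.

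A few genes of the stellate cell itself were at a shared peak. Of 47 stellate cell genes 3 were (6.38%, 95% Wilson interval 2.19 to 17.2%), beside 12.5% of all genes, a share within that interval. Of these 47 genes 34 had a replicated peak at an end and 10 had a close neighbour, so 3 of 10 with a neighbour were at a shared peak, beside 38.8% of all such genes. Of 38 genes of matrix and fibrogenic activation 1 was (2.63%, 0.466 to 13.5%), with 24 at a replicated peak and 8 with a close neighbour. The 6 peaks concerned lay at Pdgfrb, Vipr1, Tgfb1 and Ecm1. The peak at Gm52351-Pdgfrb, the receptor gene for platelet-derived growth factor beside a predicted model, had 14.2 in A and 11.1 in B. The head-to-head peak at Lyzl4-Vipr1, the receptor gene for vasoactive intestinal peptide 595 bp from the start of a lysozyme-like gene, had 8.78 and 12.4.

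The growth factor gene Tgfb1 followed the ciliary gene B9d2 in tandem, and the peak between them (chr7:25686785-25686997) had 9.84 in A and 9.38 in B. The matrix protein gene Ecm1 had 3 peaks with Tars2, at 11.3, 4.77 and 9.23 in A and 7.09, 8.44 and 6.43 in B. All 6 lay below the median of shared peaks in both replicates.

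Markers of other liver cells gave few cases. Apoa2-Tomm40l, an apolipoprotein gene of hepatocytes beside a gene of mitochondrial import, had 16.1 in A and 17.4 in B over 485 bp. The peak covered an annotated end of Tomm40l and lay 824 bp from that of Apoa2. Which of the genes was transcribed from there was not measured. Stab1-Nt5dc2, a scavenger receptor gene of sinusoidal endothelium, was a tail-to-tail case at 12.9 and 9.15, with the second end 994 bp away. Of 15 Kupffer and myeloid markers and 10 cholangiocyte markers 0 were at a shared peak; the intervals reach 20.4% and 27.8% and hold the 12.5% of all genes, and 2 genes of each list had a close neighbour.

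Rarer orientations held some strong peaks. With 2 starts on the same strand, Acsl3-Utp14b had 23.1 in A and 24.3 in B, Gm21992-Rbm14 23.8 and 20.2, and Htd2-Rpp14 21.4 and 17.5. Utp14b is known as a retrocopy that lies within Acsl3. With a start beside an opposite termination, Prc1-Rccd1 had 29.4 and 17.3, and Ttc16-Tor2a 21.6 and 19.6. The strongest tail-to-tail peaks were Rhoc-Mov10 (17.4 and 16), Cpsf4l-D11Wsu47e (19.8 and 12.5) and Ube2l6-Smtnl1 (16.6 and 13.1). The Rhoc-Mov10 peak covered an end, whereas 20 of the 24 tail-to-tail peaks covered none.

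The replicates ranked the shared peaks alike. Across the 1550 peaks Spearman's rho between fold enrichment in A and B was 0.760, against 0.756 at peaks of 1 end and 0.568 at peaks of no end; these points share both libraries and the peak caller, and are not independent. The ratio of B to A had a median of 0.906 (quartiles 0.781 and 1.05), and 1356 peaks (87.5%) were within 1.5-fold. The rule required an overlap, so replication itself is a property of the choice: before that step, 86.4% of the 1794 peaks of A at 2 or more ends overlapped a peak of B, 82.8% at 1 end and 56.2% at no end. The 244 peaks of A at 2 or more ends that lacked a counterpart had a median fold enrichment of 8.0, below the lower quartile of the replicated ones.

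A few shared peaks differed strongly between the replicates. The lowest ratio of B to A was at Rad9b-Vps29, a checkpoint clamp paralogue beside a retromer subunit, with 20.2 in A and 5.97 in B. Vmp1-Ptrh2 had 18.9 and 7.2, and Zmynd15-Cxcl16 16.6 and 6.62. The highest ratio was at Trappc2-Ofd1 on chromosome X, a trafficking complex subunit beside a centriolar protein, with 7.16 in A and 17.3 in B. Akip1-Denn2b had 6.77 and 15.8, and Usp21-Ufc1 7.90 and 16. With 1 value a replicate these differences have no error.

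**Figure D5:**
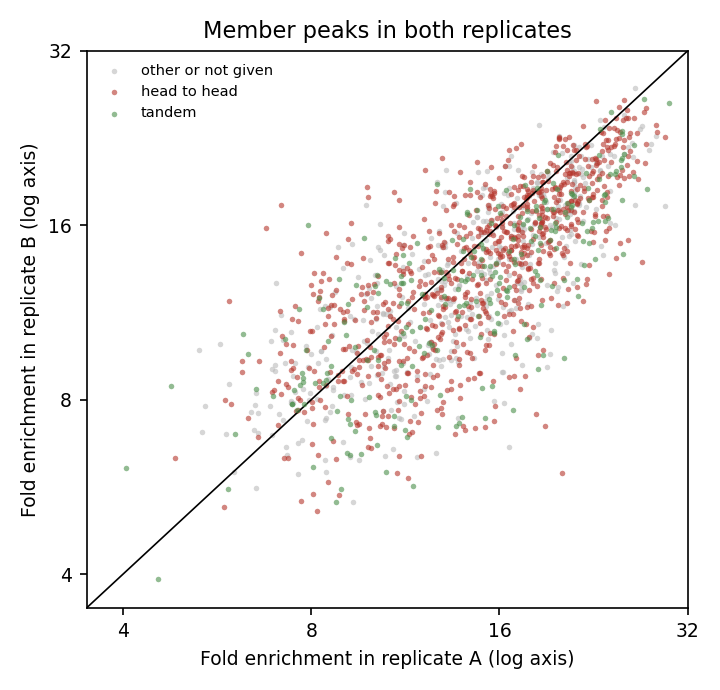
Fold enrichment of the 1550 shared peaks in replicate A (x) against replicate B (y), both on log axes, coloured by orientation, with the line of equality. Most points lie near the line and slightly below it, as the median ratio of B to A of 0.906 gives.

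The 1000 bp limit left neighbours on either side with like values. Just inside it, Polr2a-Slc35g3 (second end at 998 bp) had 11.2 in A and 14.2 in B, Gabpb2-Mllt11 (996 bp) 9.16 and 11.7, and Tead3-Tulp1 (995 bp) 8.04 and 6.13. Just outside, a peak at Ost4-Agbl5 (1002 bp) had 10.6 and 9.84, one at Psmg1-Brwd1 (1004 bp) 12.9 and 14.5, and one at Slc25a25-Naif1 (1005 bp) 5.67 and 6.21.

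Promoters at shared peaks were rich in CpG. The RefSeq windows, 250 bases before to 50 after the start, were at hand for 17492 genes. Each window was given to 1 replicated peak within 1000 bp of its start, a shared peak before others and the strongest of several. In this way 1170 shared peaks were given at least 1 window. The ratio of observed to expected CpG had a median of 0.834 over the 1875 windows with a shared peak, 0.790 over 5114 windows at a peak of 1 end, 0.276 over 9978 windows with no replicated peak within 1000 bp and 0.577 over all. A ratio above 0.6 was found in 86.9%, 78.3%, 24.2% and 48.4%. It was 0.851 at head-to-head and 0.735 at tandem pairs. GC content was 62.0% at shared peaks and 61.7% at peaks of 1 end.

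Motif content of the same windows was counted on both strands. Windows of head-to-head partners overlap, so their letters can be counted for both genes. The ETS letters CCGGAAG were in 27.7% of windows at shared peaks, 19.6% at peaks of 1 end and 11.9% of all windows, with 28.5% at head-to-head and 26.6% at tandem pairs. AAGATGGCG (YY1) was in 4.85%, 3.44% and 1.92%, with 5.70% at head-to-head and 1.69% (4 of 237 windows) at tandem pairs. CTCGCGAG was in 3.20%, 2.01% and 1.31%, with 3.99% and 1.69% (also 4 of 237). These tandem counts are small.

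Other letters did not separate shared peaks from peaks of 1 end by much. The GC box GGGCGG was in 68.9% and 71.3% of windows (46.3% of all), CCAAT in 43.4% and 43.0% (39.2%), GCATGCGC (NRF1) in 5.71% and 6.61% (3.61%), CACGTG in 11.4% and 10.7% (7.91%) and TGACGTCA (CRE) in 3.89% and 3.64% (2.33%). Letters rarer than in all promoter windows were TATAAA, in 4.64% and 6.02% (13.3%), and TGANTCA (AP-1), in 3.41% and 4.17% (7.03%).

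Among these motifs CCAAT went with the largest difference in strength. The comparison covers only the 1170 shared peaks that were given a window. Where several shared peaks lay near a start, the strongest was taken, so weaker ones can be missing. The 585 shared peaks with a CCAAT match in a window had a median fold enrichment of 17.4 in A (quartiles 14.3 and 20.7) and 15.5 in B, and the 585 without had 14.2 (11.0 and 17.7) and 12.9. With and without the ETS letters the medians were 15.7 and 16 in A and 14.2 and 14.2 in B, and with and without the GC box 16.2 and 14.7 in A and 14.3 and 13.9 in B. Single pairs did not follow the medians: among the stretches printed above, Erp44-Invs, G3bp2-Uso1 and Xrcc4-Tmem167 have no CCAAT match and had 28.4, 26.3 and 24.5 in A, while H2ac12-H2bc12 has 3 matches and had 13.3.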

How the data were processed

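Open chromatin was measured by ATAC-seq in 2 samples of 1 group. Per the submitters' processing notes, the tools were MACS2, HOMER, STAR 2.7.0, bedtools, Picard and SAMtools and the build was mm10. The sources used here do not give their settings, read filters, handling of reads with several placements or any shift for the Tn5 cut. The authors deposited 1 peak list per sample, not a pooled one, with a score, a fold enrichment (a ratio to background), a −log10 p-value and a −log10 q-value for each peak. The deposited fold enrichment was used as given, the deposited −log10 q only for a stricter threshold, and the deposited score and −log10 p were not used.

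A peak of A was kept when it shared 1 bp or more with a peak of B, with the strongest overlapping entry giving the value of B, and joined to both ends of 21887 protein-coding genes (RefSeq, GRCm38.p6, outermost annotated ends) within 1000 bp. Of the 1550 peaks 16 overlapped more than 1 peak of B. Starts and strands came from RefSeq promoter windows, matched for 17492 genes. No genome sequence or exon annotation was used, so exons, introns and UTRs are not named, and the 26 peaks on chromosome 18, where no gene had a strand here, enter no count by orientation, start or termination and no sequence comparison. Close pairs have ends no more than 2000 bp apart. Shares carry 95% Wilson intervals for counting error.

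The shared peaks and gene lists were chosen with earlier results of these data known. Peaks named in the text are the 10 of best mean rank, the 5 widest, the 5 at the most genes, the textbook pairs (some are not reported here), all at stellate or matrix genes, up to 2 per other list, the 3 at each extreme of the ratio of B to A, the 3 on each side of the 1000 bp limit, and the 3 best of each orientation. Pairs with 3 peaks, the histone pairs and the sequences printed were chosen after their values were seen. The joins were tested on simulated intervals. Analyses used Python 3.11.15, pandas 2.3.3 and scipy 1.17.1.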

Additional observations from a re-analysis of the deposited data

How the results depend on the processing

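The ratios of median fold enrichment to peaks at 1 end and at no end stayed above 1 under the alternatives run; ratios between orientations were not rerun. The count of 1550 stayed within 1.5-fold except with the 10000 strongest peaks of each list (830) and with gene starts only (882). The share of replicated peaks was 5.19% with a window of 500 bp, 9.74% with 2500 bp, 9.55% with peaks at or above their list's median −log10 q, 11.8% with the 10000 strongest, 6.30% by summit, 6.08% without predicted genes and 3.76% with starts only; with A or B alone it was 4.90 to 5.86%. The median fold enrichment was 16.8 above the median −log10 q, 18.4 in the 10000 strongest and 13.2 with coordinates of B (12.7 to 13.8 in a single list), and the median width 315, 330 and 275 bp (265 to 275 bp). The ratio to peaks at 1 end was 1.02, 1.01 and 1.03 under the same 3 settings (1.05 to 1.07 in a single list). That to peaks at no end was 1.22, 1.12 and 1.41, with 1.41 at 500 bp and 1.32 at 2500 bp (1.45 to 1.49 in a single list). The share of close pairs with a shared peak was 32.6% at 500 bp, 22.9% above the median −log10 q, 17.5% in the 10000 strongest, 28.9% by summit and 73.4% with starts only. In a single list it was 33.4 to 37.5%. The upper value is that of B alone and holds 276 pairs at 1 peak beside the common end of 24 protocadherin genes; without that peak it was 33.7%. Leaving out pairs of ends at the same position, an alternative added after the data were seen, gave 31.2%. The cause of the other changes was not tested.

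Depth is unknown, so a missing peak does not show closed chromatin. A shared peak says where DNA was accessible, not which gene used it. The gene ends are outermost annotated ones and differ from starts used in these cells where other starts exist. No paired analysis was possible because there is 1 group.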
